A study of Mus musculus with 130 samples.

Results

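Cells of the S-G2-M gate were compared with cells of the G0 gate in mouse embryos of E10.5 and E11.5 that carry FUCCI, a pair of fluorescent reporters of cell cycle phase. The comparison used the libraries of preparations WT1, WT2 and WT3 in these 2 gates, chosen by their title prefix and by the phase their labels give. They were deposited as 44 of the 130 samples of the series. Each library was deposited as 6 or 8 such samples, 1 per sequencing lane, and these were summed to 6 of the 25 libraries, which made n = 3 a side, paired by preparation. All embryos were of strain FVB/NJ and are called wild type, and no treatment is named. WT1 and WT2 were of E10.5 and WT3 was of E11.5. The G0 gate is labelled BR and the S-G2-M gate is labelled GR. Whole embryos were minced before the sort, so each gate held cells of many tissues. The labels give neither the promoter that drives the reporter nor the number of embryos in a preparation. The p-values therefore measure the spread of the difference between gates over 3 preparations, estimated with help from the other genes. This spread may be technical, and since WT3 was of another day it may also hold a difference by day. The same 2 gates of preparations 5 and 8, of E13.5, served to test whether the contrast differed by day.

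FUCCI joins fluorescent proteins to parts of Cdt1 and geminin, which are degraded in opposite phases, so that the red reporter is seen in G0 and G1 and the green one from S phase until division. As cells enter S phase, E2F transcription factors, held back in resting cells by the pocket proteins Rb1, Rbl1 and Rbl2, switch on genes for DNA replication. Genes for mitosis follow later, and many carry CHR and CCAAT elements that bind MuvB complexes and the factor NF-Y. In an embryo at mid-gestation the first neurons have left the cell cycle, while progenitors in the neural tube, somites and limb buds divide.

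Library totals were 35.1, 47.3 and 58.49 M counts in S-G2-M and 27.65, 21.22 and 21.36 M in G0, in the order WT1, WT2, WT3, which holds for every set of 3 values that follows. Depth thus moved with the gate, and its part in the results was not tested. The share of counts on mitochondrially encoded genes was 0.372% to 0.545%, and Gm26917 and Gm42418, 2 genes that share sequence with ribosomal RNA, took 2.989% to 5.44%. A count of 3, the most that a gene listed at 0 could hide, stood for 0.0513 to 0.141 CPM, the count relative to library size, for counting error only. CPM values are scaled by TMM factors, log2 changes are S-G2-M minus G0, and a gene passed the test at an adjusted p under 0.05 (edgeR, quasi-likelihood F test with preparation as a block, Benjamini-Hochberg over all genes tested). In bulk libraries of this kind, fewer cells of a type and less RNA per cell cannot be told apart.

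The gates differed over most of the transcriptome. Genes of DNA replication, histones, mitosis, G1 cyclins, ribosome production and limb or somite mesenchyme were higher in S-G2-M. Genes of neurons, of heart and skeletal muscle contraction and several CDK inhibitors were lower. Of 23087 genes tested, 14687 passed (63.6%), with 7083 higher (30.7%) and 7604 lower (32.9%). A second test asked for a change beyond 2-fold, and 5146 genes passed it (22.3%), with 1848 higher (8.00%) and 3298 lower (14.3%). Because so many genes passed the first test, the counts of each gene list are read against these shares. The median log2 change of all tested genes was -0.04.

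**Figure D1:**
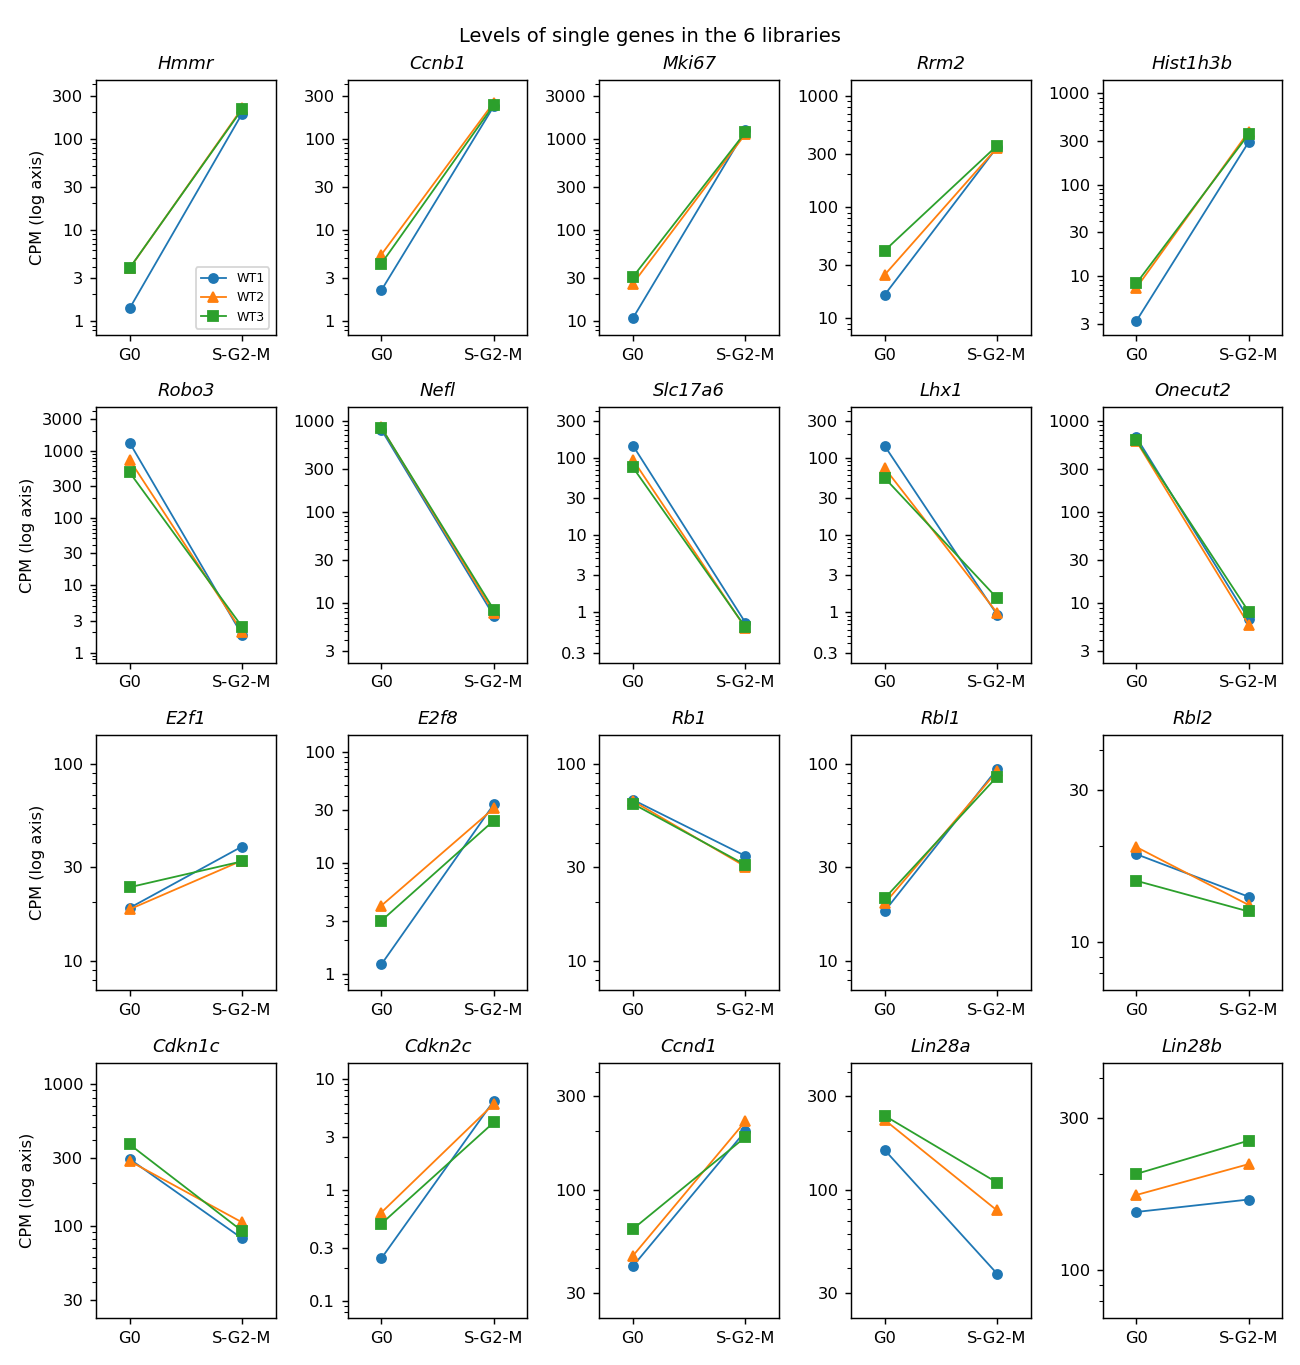
CPM on a log axis for 20 genes in the G0 and S-G2-M libraries of WT1 (circles), WT2 (triangles) and WT3 (squares), with a line joining the libraries of each preparation. Genes of division in the top row rise by far more than the preparations differ, neuronal genes in the next row fall by as much, and E2f1, Rbl2 and Lin28b in the lower rows move little.

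The highest changes belonged to mitosis and to histones. Hmmr, a spindle-associated hyaluronan receptor (chromosome 11, 40701395 to 40733422, minus strand, on GRCm38), had 189.5, 217.1 and 211.5 CPM in S-G2-M and 1.39, 3.82 and 3.85 CPM in G0, a log2 change of 6.17 ± 0.25 (SE, adjusted p = 1.02e-06). The 2 gates did not overlap, and WT1 had the lowest G0 level. Ccnb1, cyclin B1, had 228.3, 251.2 and 236.1 CPM against 2.19, 5.39 and 4.3 CPM (5.97 ± 0.22, adjusted p = 2.29e-07). Mki67, the antigen Ki-67 of dividing cells, had 1242.9, 1136.6 and 1184.2 CPM against 10.9, 26 and 30.8 CPM (5.82 ± 0.36, adjusted p = 3.07e-05). Again WT1 was lowest in G0, while the S-G2-M libraries differed little among themselves. The other genes among the 15 highest were the kinase Plk1, the kinesins Kif14 and Kif2c, the scaffold Iqgap3, the kinetochore protein Cenpf, the helicase Pif1 and 6 histone genes, with log2 changes from 5.74 to 5.89.

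Every tested gene of the lists for mitotic cyclins and kinases (24 genes) and for the spindle and cytokinesis (30 genes) was higher, with 22 and 30 past the 2-fold test and median log2 changes of 4.54 and 4.68. Among the kinases, Plk1 had 120.6, 148.1 and 143.2 CPM against 1.46, 2.15 and 3.58 CPM (5.89 ± 0.19). Cdk1, the kinase that cyclin B1 activates, had 255.7, 279.8 and 267.6 CPM against 5.38, 11 and 12.5 CPM (4.87 ± 0.23). Both kinases were far apart between the gates in every preparation. Of 28 kinetochore genes 26 were higher, all past the 2-fold test, and Cenpt (-0.16 ± 0.11, adjusted p = 0.229) and Zwint (-0.17 ± 0.08, adjusted p = 0.0914) did not pass. Nuf2, which couples kinetochores to microtubules, changed by 5.32 ± 0.21. All 15 genes of condensin, cohesin and chromosome structure were higher, and Top2a, the topoisomerase that untangles chromosomes, had 2013.7, 2063.2 and 2085.5 CPM against 22.1, 51.8 and 66.1 CPM (5.59 ± 0.34). Of 13 genes of the anaphase-promoting complex and mitotic exit 12 were higher, but only 6 passed the 2-fold test. Ube2c, its ubiquitin-conjugating enzyme (5.45 ± 0.13), and Espl1, the separase (5.37 ± 0.17), changed most, whereas the core subunit Anapc4 had 120.2, 136.5 and 133.7 CPM against 130.5, 132.8 and 151.0 CPM (-0.09 ± 0.09, adjusted p = 0.415).

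Genes of replication rose in nearly every case. Of 26 licensing genes, which load and fire the replicative helicase or, like geminin, restrain its loading, 25 were higher and 19 passed the 2-fold test (median 1.70). The exception was Orc4, with 84.5, 87.2 and 91.3 CPM against 95.1, 80.7 and 83.2 CPM (0.03 ± 0.10, adjusted p = 0.831). Mcm10 (134.2, 142.0 and 136.9 CPM against 8.4, 14.4 and 16.3 CPM) and Ticrr (133.5, 116.1 and 115.4 CPM against 8.57, 11.2 and 14.8 CPM), which act at origin firing, changed by 3.45 ± 0.17 and 3.43 ± 0.18. All 36 genes of DNA synthesis were higher and 35 passed the 2-fold test (median 2.20). Rrm2, a subunit of ribonucleotide reductase, had 348.3, 344.8 and 360.0 CPM against 16.3, 24.7 and 40.8 CPM (3.78 ± 0.25), and the histone chaperone Asf1b changed by 3.82 ± 0.22. Of 22 genes of homologous recombination and crosslink repair 21 were higher (median 2.71), with Fancd2 at 4.42 ± 0.18 and the nuclease Gen1 at 4.03 ± 0.14. Tonsl did not pass, with 64.5, 72.1 and 67.8 CPM against 68.8, 67.7 and 68.3 CPM (adjusted p = 0.97).

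The mRNAs of the reporter's parent genes were both higher in S-G2-M. Gmnn, geminin, had 74.1, 82.0 and 81.7 CPM against 6.8, 12.7 and 14.8 CPM (2.85 ± 0.18). Cdt1, which geminin inhibits, had 52.9, 64.8 and 54.6 CPM against 19.9, 24.1 and 31.4 CPM (1.21 ± 0.14), a change that did not pass the 2-fold test (adjusted p = 0.0908). The gates were set on reporter protein, and these values are of mRNA.

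Clustered histone genes had the highest median of the 39 lists. Of 69 genes, 60 were tested, 59 were higher and 57 passed the 2-fold test (median 4.80). The summed level of all 69 was 18735.8, 22836.8 and 22271.5 CPM in S-G2-M and 728.6, 1045.0 and 1011.7 CPM in G0. Hist1h3b, an H3 gene, had 293.3, 381.9 and 358.1 CPM against 3.19, 7.36 and 8.24 CPM (5.85 ± 0.21). The sole gene that was lower was Hist3h2a, with 3.32, 2.02 and 2.15 CPM against 16.1, 13.4 and 11.5 CPM (-2.47 ± 0.185, adjusted p = 4.59e-07). Near-identical copies within the clusters can split reads, so values of single histone genes are uncertain. Hist1h2ao was at 0 in all G0 libraries and its fitted change is no bound. With that gene set at its bound against 3 counts over the G0 libraries, the median was 4.71.

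**Figure D2:**
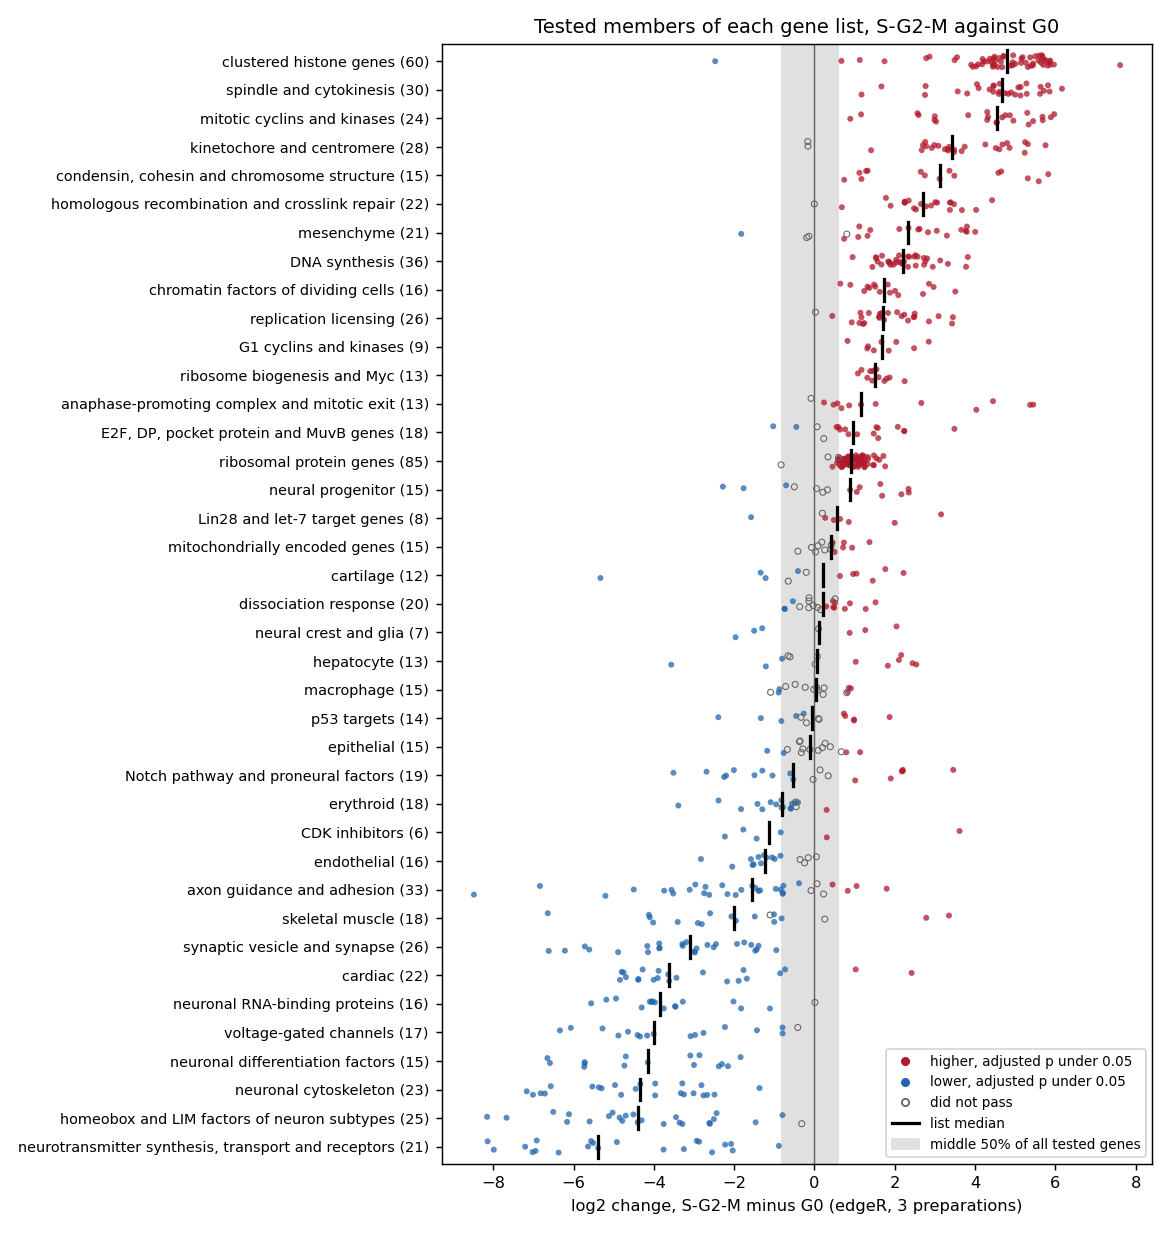
Log2 change (S-G2-M minus G0) of each tested member of 39 gene lists, with the number of tested members in brackets, a black bar at the list median and a grey band over the middle 50% of all tested genes. Lists of division lie to the right and lists of neuronal genes to the left, with medians from 4.80 for clustered histone genes to -5.39 for neurotransmitter genes; the rightmost histone point is Hist1h2ao, which was at 0 in G0.

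Promoters of the genes with the largest rise in 4 of these lists are shown because licensing and spindle promoters differed in the words they held. Promoters came from RefSeq on GRCm38.p6, which matched 12835 of the tested genes, and 300 bases were searched on both strands, from 250 before to 50 after the start. The words were TTTCCCGC, TTTCGCGC, TTTGCCGC or TTTGGCGC for E2F, TTTGAA or TTCGAA for CHR, and CCAAT, with overlaps allowed. An E2F word stood in 3.68% of all these promoters, in 7.58% of those of genes higher past 2-fold and in 1.93% of those lower past 2-fold. For CHR the shares were 13.8%, 25.1% and 11.4%, and for CCAAT they were 37.9%, 46.8% and 33.0%. Of 21 licensing promoters 10 held an E2F word (47.6%) and 6 a CHR (28.6%). DNA synthesis promoters held an E2F word in 6 of 30 cases (20.0%) and a CHR in 4 (13.3%). Of 27 spindle promoters 2 held an E2F word (7.41%) and 22 a CHR (81.5%), and of 17 promoters of mitotic cyclins and kinases 14 held CCAAT (82.4%). These lists were chosen for function, and a match is a description and not a binding site.
Each line below gives 200 bases, 170 before and 30 after the start, 5′ to 3′ along the gene, with words in capitals. The first 8 are the 2 largest rises in each of licensing, DNA synthesis, mitotic cyclins and kinases, and spindle genes. Mcm5 and Mcm3 were added after the search, as the licensing genes with the largest rise whose lines hold an E2F word.
Mcm10 (chr2:5012762-5012961, minus strand): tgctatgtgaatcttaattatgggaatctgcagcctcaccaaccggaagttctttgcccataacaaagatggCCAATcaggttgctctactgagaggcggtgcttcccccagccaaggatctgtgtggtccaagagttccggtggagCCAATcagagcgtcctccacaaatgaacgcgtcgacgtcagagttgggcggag
Ticrr (chr7:79660026-79660225, plus strand): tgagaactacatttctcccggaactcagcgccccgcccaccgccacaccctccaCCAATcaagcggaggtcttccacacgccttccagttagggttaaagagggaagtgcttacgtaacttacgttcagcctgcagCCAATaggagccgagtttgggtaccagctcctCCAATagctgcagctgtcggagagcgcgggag
Asf1b (chr8:83955524-83955723, plus strand): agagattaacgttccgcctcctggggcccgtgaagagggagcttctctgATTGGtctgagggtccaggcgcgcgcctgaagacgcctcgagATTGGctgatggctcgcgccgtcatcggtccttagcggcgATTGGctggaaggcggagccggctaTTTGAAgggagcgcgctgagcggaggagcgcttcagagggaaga
Rrm2 (chr12:24708084-24708283, plus strand): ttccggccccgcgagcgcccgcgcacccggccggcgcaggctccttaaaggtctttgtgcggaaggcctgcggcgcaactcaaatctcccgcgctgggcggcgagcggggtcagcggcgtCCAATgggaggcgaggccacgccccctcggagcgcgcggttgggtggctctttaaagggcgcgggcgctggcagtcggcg
Ccnb1 (chr13:100786457-100786656, minus strand): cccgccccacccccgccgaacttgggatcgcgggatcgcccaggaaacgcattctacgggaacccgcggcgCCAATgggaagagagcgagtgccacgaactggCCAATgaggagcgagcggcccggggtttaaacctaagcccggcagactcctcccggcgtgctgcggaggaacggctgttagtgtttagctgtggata
Plk1 (chr7:122159265-122159464, plus strand): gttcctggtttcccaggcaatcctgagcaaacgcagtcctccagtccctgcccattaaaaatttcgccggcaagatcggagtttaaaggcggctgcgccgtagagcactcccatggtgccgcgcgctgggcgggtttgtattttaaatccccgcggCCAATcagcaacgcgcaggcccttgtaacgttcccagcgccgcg
Hmmr (chr11:40733408-40733607, minus strand): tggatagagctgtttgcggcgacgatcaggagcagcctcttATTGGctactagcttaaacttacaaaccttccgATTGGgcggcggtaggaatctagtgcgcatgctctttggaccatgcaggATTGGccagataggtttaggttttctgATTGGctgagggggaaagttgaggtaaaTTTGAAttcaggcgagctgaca
Kif14 (chr1:136467678-136467877, plus strand): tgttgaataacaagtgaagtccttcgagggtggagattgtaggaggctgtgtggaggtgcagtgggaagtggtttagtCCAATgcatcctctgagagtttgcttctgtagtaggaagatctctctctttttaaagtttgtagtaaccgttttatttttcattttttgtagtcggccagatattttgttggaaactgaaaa
Mcm5 (chr8:75109339-75109538, plus strand): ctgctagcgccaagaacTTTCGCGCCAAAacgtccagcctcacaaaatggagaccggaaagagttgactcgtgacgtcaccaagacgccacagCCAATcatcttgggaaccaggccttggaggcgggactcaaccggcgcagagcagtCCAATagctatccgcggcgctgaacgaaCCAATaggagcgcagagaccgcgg
Mcm3 (chr1:20820283-20820482, minus strand): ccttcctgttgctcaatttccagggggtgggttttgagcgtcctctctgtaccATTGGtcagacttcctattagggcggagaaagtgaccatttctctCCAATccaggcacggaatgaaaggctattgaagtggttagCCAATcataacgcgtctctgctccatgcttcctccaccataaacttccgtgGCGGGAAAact
Within the first 8 no line holds an E2F word and each holds CCAAT, from 1 word in Rrm2, Plk1 and Kif14 to 4 in Hmmr. The CHR lies at bases -14 to -9 in Asf1b and 9 to 14 in Hmmr, counted from the start with no base 0, and in Plk1 (31 to 36) and Kif14 (-228 to -223) it lies outside the printed stretch. In Mcm5 overlapping E2F words on both strands run from -153 to -142, and in Mcm3 the printed word lies at 20 to 27. That Ccnb1 shows no CHR says only that these letters are not in this window.

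The E2F genes differed among themselves. E2f8, an atypical repressor, had 33.5, 30.8 and 23.9 CPM against 1.21, 4.09 and 2.99 CPM (3.49 ± 0.36, adjusted p = 0.000157), and E2f7, its partner, changed by 2.08 ± 0.14. Of the activators, E2f2 (2.24 ± 0.29) and E2f3 (1.59 ± 0.10) passed the 2-fold test. E2f1 did not, with 38.2, 32.4 and 32.1 CPM against 18.6, 18.3 and 23.7 CPM (0.76 ± 0.14, adjusted p = 0.000444 in the first test). The gates stayed apart for E2f1, by the least in WT3. The repressors E2f4 (1.06 ± 0.11), E2f5 (1.48 ± 0.12) and E2f6 (0.60 ± 0.10) were also higher. In all, 14 of 18 E2F, DP, pocket protein and MuvB genes were higher, 8 of them past 2-fold, and Tfdp2 (0.23 ± 0.105) and Lin37 (0.07 ± 0.19) did not pass.

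The 2 genes of that list that were lower are pocket proteins. Rb1, the retinoblastoma protein, had 34.2, 30.2 and 30.8 CPM against 66.0, 65.1 and 63.0 CPM (-1.03 ± 0.10, adjusted p = 3.54e-06). Rbl2, p130, had 13.9, 13.1 and 12.5 CPM against 18.9, 19.9 and 15.6 CPM (-0.45 ± 0.14, adjusted p = 0.0136), and without WT2 it did not pass (-0.38, adjusted p = 0.101). Of the exons of Rbl2, 21.0% lie under a gene of the other strand, as do 14.9% of those of Rb1 and 22.8% of those of Ube2c above. Whether reads were counted by strand is not given in the sources used here. Rbl1, p107, went the other way, with 94.7, 92.2 and 86.6 CPM against 17.9, 19.6 and 20.8 CPM (2.23 ± 0.11, adjusted p = 1.26e-08).

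All 9 G1 cyclins and kinases were higher and 8 passed the 2-fold test (median 1.67). The D cyclins, which answer to growth signals, changed by 2.04 ± 0.15 for Ccnd1, 1.67 ± 0.16 for Ccnd2 and 1.34 ± 0.14 for Ccnd3. Ccne1, cyclin E1 of the G1 to S step, had 70.8, 83.3 and 83 CPM against 8.15, 9.61 and 16.4 CPM (2.85 ± 0.16), and its kinase Cdk2 changed by 2.48 ± 0.16. Ccne2 changed by less, with 1.31 ± 0.12.

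CDK inhibitors, which block these kinases, split. Of 6 tested, 4 were lower and 2 were higher (median -1.14), and Cdkn2a was not tested. Cdkn1c, p57, had 81.4, 105.6 and 91.8 CPM against 294.9, 285.3 and 374.0 CPM (-1.77 ± 0.11, adjusted p = 2.12e-07). Cdkn1a, p21, had 1.08, 1.51 and 1.25 CPM against 4.61, 7.81 and 5.8 CPM (-2.23 ± 0.22), and Cdkn2d, p19, changed by -0.84 ± 0.12. Cdkn2c, p18, was higher, with 6.38, 5.98 and 4.08 CPM against 0.243, 0.629 and 0.498 CPM (3.61 ± 0.33, adjusted p = 2.27e-06). Cdkn1b, p27, had 86.0, 96.3 and 87.0 CPM against 71.7, 66.7 and 79.6 CPM (0.31 ± 0.10, adjusted p = 0.0192), and without WT2 it did not pass (0.20, adjusted p = 0.17). For Cdkn1c 30.7% of the exons lie under a gene of the other strand.

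Genes of chromatin in dividing cells, of ribosome production and of ribosomal proteins were higher as groups. All 16 chromatin factors were higher, 14 past 2-fold, with the variant histone H2afx at 3.51 ± 0.10, Hmgb2 at 2.97 ± 0.10 and Ezh2, the polycomb methyltransferase, at 0.64 ± 0.09. All 13 genes of ribosome biogenesis and Myc were higher (median 1.51), and Npm1, nucleophosmin, had 893.4, 1167.2 and 1299.2 CPM against 242.1, 327.4 and 348.4 CPM (1.87 ± 0.08). Of 85 ribosomal protein genes 82 were higher, but only 14 passed the 2-fold test (median 0.92). Many have processed copies elsewhere, which can take their reads. Of 15 tested mitochondrially encoded genes 7 were higher (median 0.42), none of them past 2-fold. The number higher was 10 without WT1, 3 without WT2 and 5 without WT3.

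Lin28a and Lin28b, which block maturation of let-7 microRNAs, did not move together. Lin28a had 37.6, 78.9 and 109.4 CPM against 160.3, 227.9 and 239.4 CPM (-1.58 ± 0.17, adjusted p = 0.000119), with gates that did not overlap. Lin28b had 166.3, 214.7 and 254.4 CPM against 152.0, 171.8 and 200.0 CPM (0.27 ± 0.09, adjusted p = 0.0171), with gates that overlapped, and without WT2 it did not pass (0.24, adjusted p = 0.0998). Hmga2, a let-7 target, had 361.8, 421.1 and 363.2 CPM against 29.1, 40.7 and 65.6 CPM (3.15 ± 0.24). Trim71, another target, did not pass (0.20 ± 0.10, adjusted p = 0.114).

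Neuronal genes were lower in S-G2-M almost without exception. Robo3, a receptor of commissural axons (chromosome 9, 37415669 to 37433246, minus strand), had 1.84, 2.04 and 2.43 CPM in S-G2-M against 1326.9, 735.2 and 480.2 CPM in G0, a change of -8.48 ± 0.39 (adjusted p = 7.53e-06). Its G0 level was highest in WT1 and lowest in WT3. Slc17a6, the vesicular glutamate transporter VGLUT2, had 0.738, 0.629 and 0.644 CPM against 143.1, 93.8 and 74.7 CPM (-7.21 ± 0.16, adjusted p = 7.07e-11). The 15 lowest also held the neurofilament genes Ina, Nefl and Nefm, Stmn2 of growth cones, the adhesion molecule Cntn2, the homeobox factors Onecut2, Lhx4 and Lhx1, and Islr2, Trim67 and Arhgap36, from -7.17 to -5.89. Myh3, the embryonic myosin of skeletal muscle and also among the 15, had 1.39, 1.51 and 1.2 CPM against 72.6, 295.1 and 98.1 CPM (-6.64 ± 0.365). Of the exons of Nefl 32.8% lie under a gene of the other strand, as do 19.2% of those of Nefm and 14.1% of those of Ina.

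All 23 genes of the neuronal cytoskeleton were lower past 2-fold (median -4.34), and their summed level was 1451.3, 1385.0 and 1282.4 CPM in S-G2-M against 19411.9, 17041.8 and 16055.9 CPM in G0. Nefl, the light neurofilament, had 7.32, 7.91 and 8.57 CPM against 806.2, 849.8 and 846.8 CPM (-6.72 ± 0.105), and the preparations were close to each other in both gates. All 26 synaptic genes were lower, 25 past 2-fold (median -3.09), among them Rab3c of synaptic vesicles (-5.72 ± 0.19) and the adhesion molecule Nrxn3 (-5.61 ± 0.31). All 21 genes of neurotransmitter synthesis, transport and receptors were lower, 20 past 2-fold, with the lowest median of the 39 lists (-5.39). Chrna3, a nicotinic receptor subunit of autonomic neurons, had 1.7, 2.16 and 2.13 CPM against 92.6, 78.1 and 105.6 CPM (-5.51 ± 0.15). Of 17 voltage-gated channels 16 were lower (median -4.01), with Cacna1b of N-type calcium channels at -5.28 ± 0.12, and Kcna1 did not pass (-0.42 ± 0.27, adjusted p = 0.206).

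Factors that drive and specify neurons were lower with them. All 15 tested neuronal differentiation factors were lower past 2-fold (median -4.15). Myt1, a zinc finger factor of new neurons, had 16.4, 11.2 and 8.7 CPM against 732.2, 580.6 and 571.5 CPM (-5.74 ± 0.13), and Nhlh2 changed by -5.73 ± 0.11. Of 25 homeobox and LIM factors of neuron subtypes 24 were lower, 23 past 2-fold (median -4.40). Onecut2 had 6.75, 5.84 and 8.11 CPM against 664.2, 602.3 and 612.0 CPM (-6.51 ± 0.125), while Lmx1b, which is also found in limb mesenchyme, did not pass (-0.32 ± 0.17, adjusted p = 0.124). Of 16 neuronal RNA-binding proteins 15 were lower (median -3.86), with Srrm3 at -5.56 ± 0.18, and Khdrbs3 did not pass (0.01 ± 0.09, adjusted p = 0.929).

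Axon guidance genes divided. Of 33 tested, 26 were lower, 20 of them past 2-fold, and 4 were higher (median -1.55). The 4 were Sema3a, Epha3, Epha4 and Unc5c, of which Sema3a alone passed the 2-fold test. Sema3a, a secreted repellent, had 133.9, 142.6 and 138.1 CPM against 32.7, 41.0 and 46.7 CPM (1.798 ± 0.106, adjusted p = 6.41e-08). Epha3, an ephrin receptor, had 180.3, 146.3 and 115.2 CPM against 96.9, 55.1 and 64.3 CPM (1.05 ± 0.12). At the other end Cntn2, found on early axons, had 16.9, 16.6 and 17.1 CPM against 2245.0, 1712.4 and 1884.4 CPM (-6.84 ± 0.12).

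In the Notch pathway, through which new neurons keep their neighbours as progenitors, receptors and their targets were higher and ligands were lower. Notch1 (1.01 ± 0.20), Notch2 (1.90 ± 0.20) and Notch3 (2.20 ± 0.24) were higher, as were the target genes Hes1 (2.17 ± 0.35) and Hes5 (3.46 ± 0.23) and the modifier Lfng (2.20 ± 0.15). Hes5 had 26, 22.4 and 18.4 CPM against 2.67, 2.74 and 0.906 CPM. The ligand Dll3 had 10.4, 9.57 and 8.88 CPM against 108.8, 85.9 and 140.1 CPM (-3.51 ± 0.16), Jag2 changed by -2.69 ± 0.11 and Dll1 by -0.53 ± 0.09. The proneural factors Neurog1 (-1.05 ± 0.20) and Neurog2 (-1.30 ± 0.15) were lower. Of the 19 genes tested 6 were higher and 10 lower. Here and in the other lists, genes named as exceptions to a count, together with Ezh2, Trim71, Cnmd, Hes1, Hes5, Dll1, Neurog1, Neurog2, Notch1, Notch2, Fos, Junb and Egr1, were chosen after their values were seen. So were Pax6, Irx3, Olig2, Vim, Msi1, Hes3, Myod1, Myf5 and Tnnt3.

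Neural progenitor genes were mostly higher. Of 15, 8 were higher, 3 were lower and 4 did not pass (median 0.89). Sox2, a progenitor factor, had 117.0, 123.8 and 102.7 CPM against 17.3, 22.1 and 29.1 CPM (2.35 ± 0.17), and Fabp7, a radial glia protein, changed by 2.34 ± 0.215. The 3 that were lower are homeobox factors of ventral or intermediate neural tube domains, but other factors of such domains were not lower. Pax6 and Irx3 were higher, and Olig2, Vim, Msi1 and Hes3 did not pass. Nkx6-1 had 6.98, 8.54 and 6.77 CPM against 35.9, 36.4 and 35.6 CPM (-2.28 ± 0.13), Nkx2-2 changed by -1.77 ± 0.26 and Dbx1 by -0.71 ± 0.20, the last without passing when WT3 was left out (-0.48, adjusted p = 0.0847). Of 7 genes of neural crest and glia 3 were higher and 3 lower (median 0.10, but -0.15 without WT1 and 0.37 without WT3), with Tfap2b, which is also expressed in neurons, at -1.97 ± 0.12.

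Muscle genes split, with 2 progenitor factors higher and most contractile genes lower. Pax7 (34.3, 31.9 and 30.1 CPM against 3.54, 2.69 and 3.22 CPM, 3.35 ± 0.15) and Pax3 (79.8, 78.2 and 82.1 CPM against 9.92, 9.52 and 16.3 CPM, 2.78 ± 0.15), factors of somite and neural tube progenitors, were higher. Myog, which starts muscle differentiation, had 3.01, 4.36 and 2.92 CPM against 11.4, 27.1 and 26.5 CPM (-2.60 ± 0.23). In all, 14 of 18 skeletal muscle genes were lower, 10 past 2-fold, and these 2 Pax genes were the ones that were higher (median -2.01). The muscle factor Myod1 was among those lower, while the muscle factor Myf5 and the contractile gene Tnnt3 did not pass. Of 22 cardiac genes 20 were lower, 18 past 2-fold (median -3.63). Ttn, titin, had 53.8, 58.3 and 55.7 CPM against 918.9, 2750.8 and 1634.3 CPM (-4.845 ± 0.306), and Myh7, a slow myosin of the embryonic ventricle, changed by -4.80 ± 0.175. The cardiac genes that were higher were the factors Tbx5 (2.42 ± 0.37) and Hand2 (1.03 ± 0.17), both also of the limb bud. The summed cardiac level in G0 was 1336.4, 3742.3 and 2524.3 CPM, lowest in WT1, against 123.4, 151.9 and 148.6 CPM.

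Mesenchyme genes were higher in 17 of 21 cases, 12 past 2-fold (median 2.34). Prrx1, a factor of limb and head mesenchyme, had 294.2, 271.1 and 236.3 CPM against 16.3, 20.8 and 20.9 CPM (3.79 ± 0.13), and Meox1 of the somites changed by 3.80 ± 0.19. Dcn, the matrix protein decorin, was lower (-1.82 ± 0.20), and the matrix genes Col1a1, Postn and Fn1 did not pass. Postn, periostin, had 41.5, 62.4 and 56.0 CPM against 17.2, 92.8 and 108.9 CPM, higher in S-G2-M in WT1 alone. The summed mesenchyme level in G0 was 939.3, 2364.6 and 2241.9 CPM, again lowest in WT1. Of 12 cartilage genes 6 were higher and 4 lower (median 0.22), with 6 lower and a median of 0.00 without WT1 and a median of 0.48 without WT3. Sox9, the factor that founds cartilage, changed by 2.22 ± 0.20 and Col9a1 by 1.76 ± 0.20, while Cnmd, chondromodulin, had 0.823, 0.696 and 0.736 CPM against 35.7, 27.0 and 29.2 CPM (-5.33 ± 0.175).

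Markers of other cell types that could mix into either gate were also counted. Of 16 endothelial genes 12 were lower (median -1.23), while the gates did not overlap for 2 of the 16, beside 15038 of all 23087 tested genes, and 7 were lower without the block for preparation. The summed endothelial level was 94.2, 268.3 and 232.6 CPM against 188.8, 731.7 and 481.6 CPM, lowest in WT1 in both gates. Of 18 erythroid genes 14 were lower (median -0.80), 5 without the block, and the sum was 250.1, 325.0 and 401.5 CPM against 302.7, 409.5 and 532.6 CPM. Hba-a1, an alpha globin with a near-identical copy and so uncertain, had 4.51, 14.7 and 15.7 CPM against 5.62, 24.6 and 38.9 CPM. Of 15 macrophage genes 10 did not pass, and their sum was 32.0, 25.1 and 30 CPM against 23.0, 25.3 and 24.6 CPM. Of 13 hepatocyte genes 6 were higher and 3 lower (median 0.07, but -0.12 without WT1), with 3 higher when WT2 was left out, and Afp, alpha-fetoprotein, changed by 2.54 ± 0.20. Of 15 epithelial genes 11 did not pass, and the median of -0.11 became 0.29 without WT3. How far these cells shape other results was not tested.

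Of 14 p53 targets 5 were higher and 5 lower (median -0.05). Trp53inp1, a stress-induced protein, had 31.4, 29.2 and 28.2 CPM against 144.9, 143.2 and 181.2 CPM (-2.40 ± 0.11), and the cell death gene Bbc3 changed by -1.34 ± 0.16, whereas the exonuclease Aen changed by 0.99 ± 0.11. Of 20 genes that respond to tissue dissociation 9 were higher and 3 lower (median 0.22), 1 past 2-fold, and without WT2 the number lower was 1. Fos, Junb and Egr1 did not pass. Socs3, a feedback inhibitor of cytokine signalling, had 20.3, 28.5 and 15.6 CPM against 8.29, 13.3 and 5.66 CPM (1.28 ± 0.145).

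The G0 libraries were not free of division genes. Summed mitotic cyclins and kinases were 148.0, 201.5 and 242.3 CPM in G0 against 3263.8, 3539.1 and 3360.8 CPM in S-G2-M, and summed DNA synthesis genes were 986.0, 1246.5 and 1452.2 CPM against 5336.2, 5637.4 and 5843.1 CPM. In both sums WT1 was lowest in G0 and WT3 highest, and the median log2 change of the mitotic list was 5.18, 4.42 and 4.12.

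The other gates of the same 3 preparations place this contrast, with CPM scaled over their 15 libraries and errors as SD with n = 3. Ccnb1 was at 3.88 ± 1.58 CPM in G0, 8.15 ± 1.5 in G1, 56.8 ± 8.94 in G1-S and 240.2 ± 9.27 in S-G2-M, a stepwise order. Mcm10 was at 12.8 ± 4.12, 61.8 ± 14.2, 227.7 ± 14.3 and 138.7 ± 2.55 CPM, with its highest level in G1-S. E2f1 was at 19.8 ± 3.27, 56.5 ± 3.50, 71.8 ± 9.72 and 34.5 ± 3.84 CPM. Its small change between S-G2-M and G0 thus joined the 2 lowest of the 4 gates. Ccne1 and E2f2 were also highest in G1-S, at 132.7 ± 20.6 and 53.6 ± 6.94 CPM against 79.6 ± 6.38 and 21.5 ± 2.56 CPM in S-G2-M. Cdkn1c was at 312.5 ± 51.6, 297.3 ± 61.4, 219.5 ± 14.2 and 93.5 ± 11.2 CPM, with G0 and G1 within their spread. Dll3 was as high in G1 (129.9 ± 45.9 CPM) as in G0 (109.7 ± 28.0 CPM) within the spread, and low in S-G2-M (9.69 ± 0.845 CPM). Lin28a was high in G0 (205.4 ± 42.7 CPM), and its levels in G1 (52.3 ± 21.6 CPM), G1-S (39.1 ± 22.4 CPM) and S-G2-M (75.7 ± 35.9 CPM) followed the same order in each preparation, with S-G2-M above G1 and G1 above G1-S, which was not tested. Ttn was high in G0 (1732.0 ± 891.1 CPM) and in G1-S (1745.4 ± 989.6 CPM) and low in S-G2-M (56.3 ± 1.72 CPM).

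**Figure D3:**
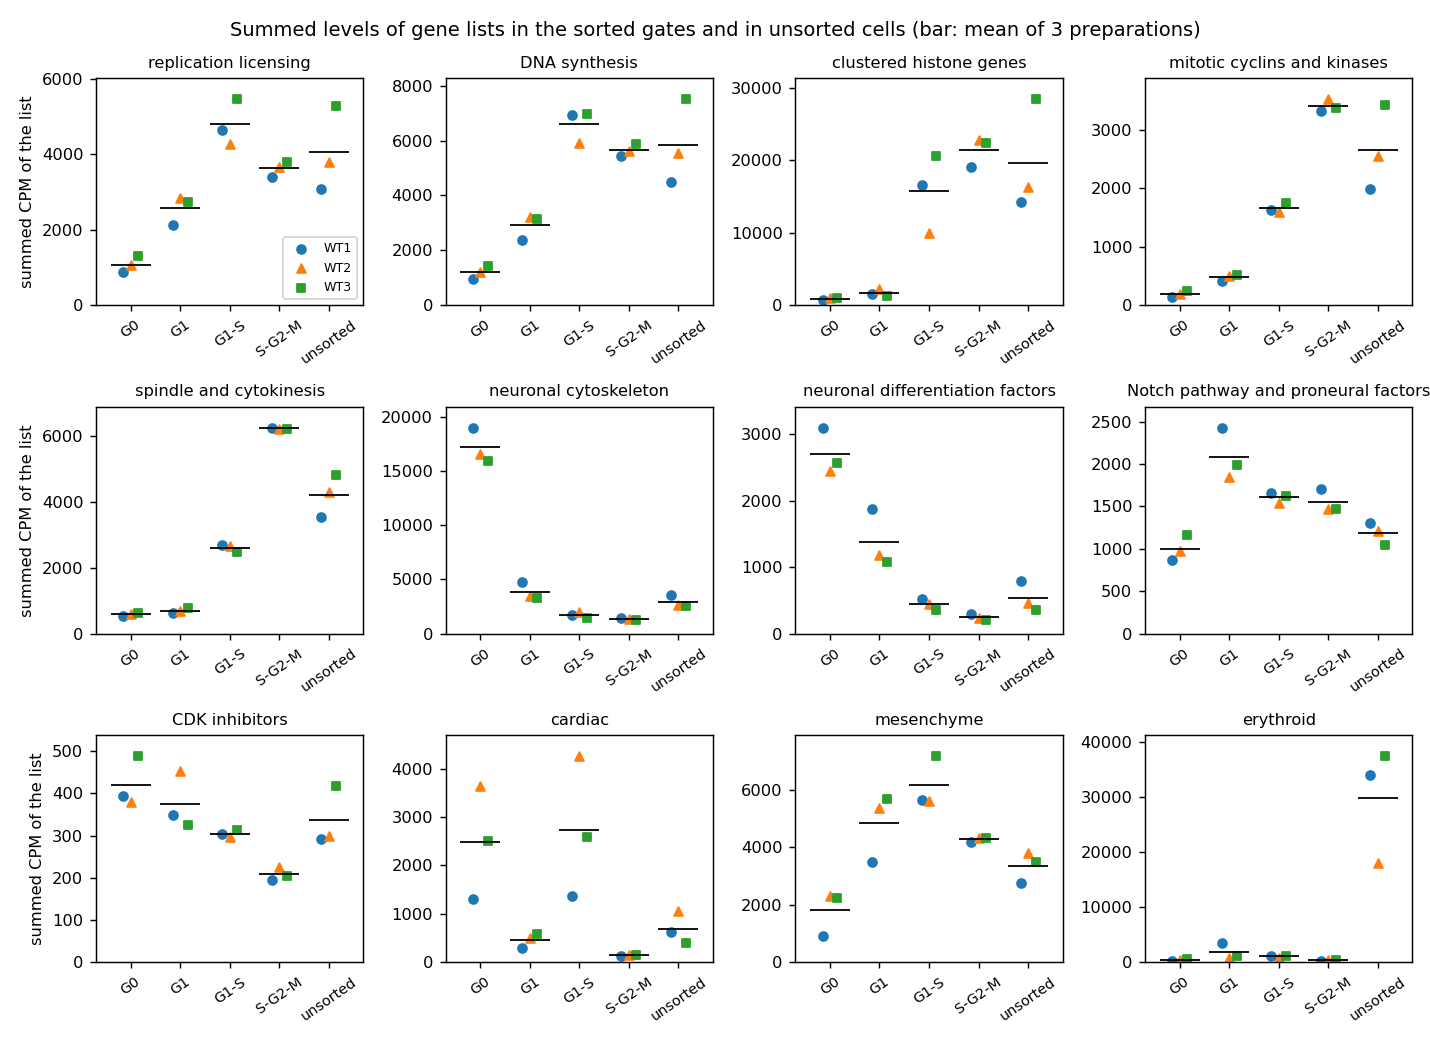
Summed CPM of 12 gene lists in 4 sorted gates and in unsorted cells of WT1 (circles), WT2 (triangles) and WT3 (squares), with a bar at the mean of the 3 preparations and axes that start at 0. Among the sorted gates, licensing and DNA synthesis genes have their highest mean in G1-S, mitotic and spindle genes in S-G2-M, neuronal genes in G0, and cardiac genes in G1-S (2742.2 CPM), with G0 close below (2484.1 CPM).

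The length and kind of the genes past the 2-fold test are given as a description. Protein-coding genes that were higher had a median length of 20.9 kb, and those that were lower had one of 33.6 kb, beside 24.5 kb for all tested. Of the higher genes 74.8% were protein-coding and 56 were lincRNAs, while of the lower genes 68.8% were protein-coding and 201 were lincRNAs. Of all 23087 tested genes 66.6% were protein-coding and 822 were lincRNAs.

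The contrast was tested for a difference between E13.5 (preparations 5 and 8) and the earlier days over 20803 genes. It differed for 3743 genes (18%), with 1912 higher at E13.5 (9.19%) and 1831 lower (8.80%). Of mitotic cyclins and kinases 4 of 24 were higher at E13.5, with medians of 4.53 at the earlier days and 5.12 at E13.5. Of licensing genes 1 of 26 was higher and 6 were lower (medians 1.69 and 1.34). Spindle genes had 13 of 30 higher at E13.5 (medians 4.67 and 5.41), and 14 of 36 DNA synthesis genes were lower (2.19 and 1.78). For cardiac genes 16 of 20 were higher at E13.5, where the median was 0.10 in place of -3.77. Skeletal muscle genes had 14 of 17 higher (-2.08 and 0.89), epithelial genes 13 of 15 (-0.12 and 1.69) and endothelial genes 11 of 16 (-1.23 and 0.00). Mesenchyme genes had 12 of 21 lower (2.33 and 0.53). The neuronal cytoskeleton had 17 of 23 higher, which left its median at -2.80 in place of -4.34, and synaptic genes had 7 of 26 (-3.10 and -3.15).

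Single genes show both kinds of outcome. Hmmr had a log2 change of 6.06 at E13.5 and differed by -0.10 ± 0.37 from the earlier days (adjusted p = 0.911). Ttn had -0.45 at E13.5 and differed by 4.41 ± 0.41 (adjusted p = 0.000829), and Prrx1 had 0.74 and differed by -3.04 ± 0.17 (adjusted p = 4.16e-06). Nefl had -2.45 and differed by 4.27 ± 0.16 (adjusted p = 2.02e-07), while Ina, another neurofilament gene, differed by 0.59 (adjusted p = 0.291). Without preparation 5 the test called 1212 genes and without preparation 8 it called 1102, so the count rests on both. The E13.5 libraries also had a higher share of mitochondrially encoded counts (1.663% to 2.467%). Embryonic day and the title series of the preparations coincide and cannot be told apart.

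**Figure D4:**
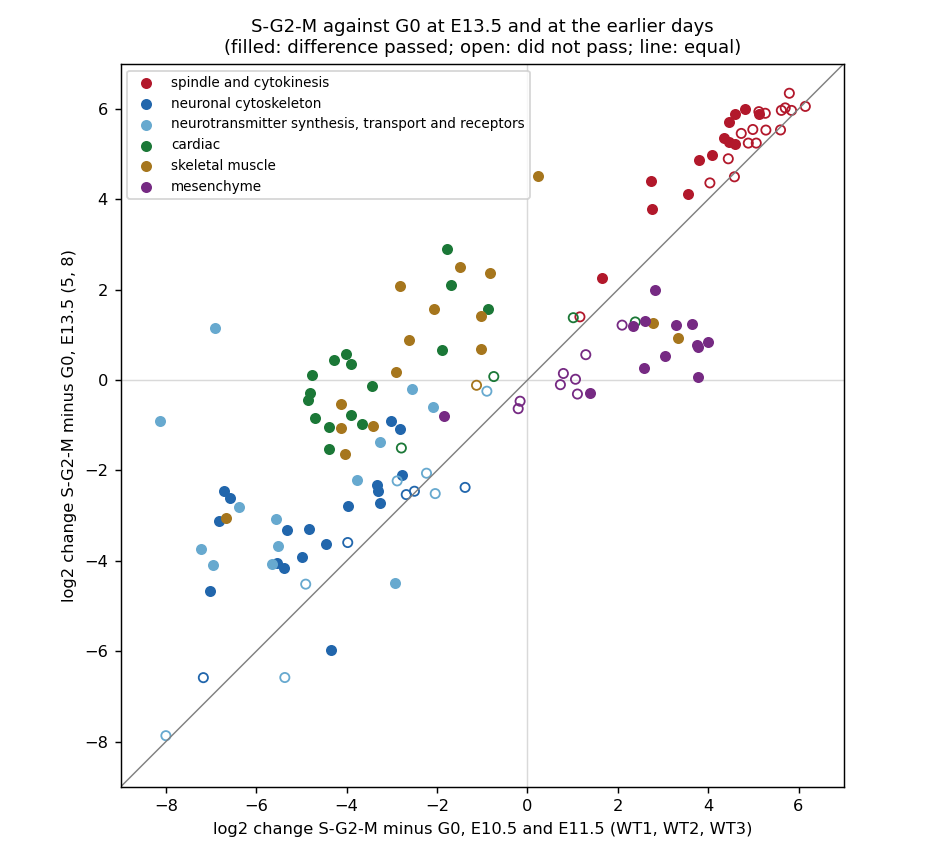
Log2 change (S-G2-M minus G0) at E13.5 (preparations 5 and 8) against that at E10.5 and E11.5 (WT1, WT2, WT3) for tested members of 6 gene lists; filled points passed the test of the difference, open points did not, and the line marks equal change. Spindle genes lie near or above the line at the upper right, most cardiac and skeletal muscle genes lie well above it, and most mesenchyme genes lie below it.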

How the data were processed

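RNA-seq of flow-sorted FUCCI embryo cells was deposited as gene counts, not normalized, which the authors made from reads aligned with STAR 2.5.3 and counted with HTSeq 0.8.0 on mm10, per the submitters' processing notes; the sources used here give neither annotation nor strand setting. Ribosomal RNA was depleted, per the labels' protocols. Lane columns were summed per library, since lanes differed by little beyond sampling noise (variance over mean 1.113 to 1.213, against 20.7 to 22.6 between WT1 and WT2). The first range is of single lanes and the second of whole, deeper libraries, so their sizes are not on a like scale.

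S-G2-M was tested against G0 with edgeR 4.0.16 in R 4.3.3: TMM, filterByExpr (count 10, total 15), robust quasi-likelihood F test, preparation as a block, 2 residual degrees of freedom, Benjamini-Hochberg, and glmTreat for 2-fold. The interaction with day used 10 libraries. SE is the log2 change over the root of F. DESeq2 1.42.0, RLE factors, no filter, no block, 15 libraries, leaving out Gm26917 and Gm42418, and leaving out each preparation were the alternatives. Deviations from gate means correlated within a preparation (r = 0.522, 0.21 and 0.45 over 11105 genes). The highest r with another preparation was -0.062, 0.184 and -0.116, so WT2 was nearly as close to another preparation. Without Xist, Tsix and chromosome Y, WT2 had 0.204 within and 0.207 with another. Within each gate these deviations cancel out over the preparations, so a positive r within a preparation forces a negative r with another. The comparison of these r values therefore cannot serve as a test of the pairing. The test was tested on simulated data.

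Of 52550 gene IDs, 52403 matched GENCODE M21 (GRCm38) for positions, and 185 share a symbol. Named genes are the 15 highest and 15 lowest changes whose mean log2 CPM was 3 or more, up to 2 genes each way per list, and fixed cell cycle genes. Some genes that this rule names are not reported here. Members and lists were chosen with earlier results of these data known.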

Additional observations from a re-analysis of the deposited data

Results flagged for a closer look

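For 57 of the 126 named genes the contrast of S-G2-M with G0 differed between E13.5 and the earlier days (edgeR, interaction term, adjusted p under 0.05), of which 22 were no longer called without preparation 8 and 19 without preparation 5. Values, given for those reported here, are the log2 change at E13.5 minus that at E10.5 and E11.5, so a positive value for a gene that was lower in S-G2-M means a smaller fall or a rise at E13.5. Preparation series and day coincide and cannot be told apart.

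Neuronal genes, all lower in S-G2-M at the earlier days, differed by 3.33 for Robo3, 3.48 for Slc17a6, 2.35 for Stmn2, 4.27 for Nefl, 3.97 for Nefm, 3.67 for Onecut2, 2.24 for Lhx4, 2.17 for Islr2, 0.73 for Trim67 and 5.43 for Arhgap36. Further genes of synapses, channels and neuronal factors differed by 2.10 for Nrxn3, 1.84 for Chrna3, 1.11 for Cacna1b, 2.85 for Myt1, 1.23 for Nhlh2, 1.03 for Srrm3 and 1.27 for Rbfox1. Notch ligands differed by 2.68 for Dll3 and 2.07 for Jag2, and neural tube factors by 1.799 for Nkx6-1 and 2.15 for Dbx1. In preparations 5 and 8 Dbx1 was higher in S-G2-M, while the other genes of this paragraph were still lower in both.

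Contractile and myogenic genes differed by 4.41 for Ttn, 4.53 for Myh7, 3.61 for Myh3 and 3.50 for Myog. Endothelial genes differed by 3.15 for Robo4 and 1.36 for Tie1, epithelial genes by 1.28 for Epcam and 1.74 for Krt8 and cartilage collagens by 2.52 for Col9a3 and 1.34 for Col9a2. In preparations 5 and 8, Myog, Robo4, Krt8, Col9a3 and Col9a2 were higher in S-G2-M, as was Epcam, which was higher at the earlier days too. Ttn, Myh3 and Tie1 were lower in both, and Myh7 was lower in preparation 5 alone.

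Among genes higher in S-G2-M at the earlier days, those with a lower value at E13.5 included mesenchyme and progenitor genes, with -3.72 for Meox1, -3.04 for Prrx1, -2.40 for Pax7, -1.50 for Pax3 and -1.45 for Fabp7. The guidance genes gave -1.50 for Sema3a and -1.27 for Epha3, the let-7 pathway -1.47 for Hmga2 and -1.22 for Lin28b, and at E13.5 itself the log2 change was negative for Epha3 (-0.23) and Lin28b (-0.96). Lower values were also found for ribosome genes, with -0.69 for Dkc1, -0.84 for Npm1, -0.83 for Rpl12 and -0.53 for Rpl3, and for others, with -1.43 for Afp, -0.61 for Aen and -0.83 for Socs3. A larger rise, as in Epcam above, was found for Pif1 (0.97), H2afx (0.86) and Hmgb2 (0.59).

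CDK inhibitors differed by 1.97 for Cdkn1c, 1.65 for Cdkn2d and 1.65 for Cdkn1a, and pocket proteins by 0.41 for Rb1 and 0.55 for Rbl2. At E13.5 itself the log2 change was positive for Cdkn1c (0.19), Cdkn2d (0.80) and Rbl2 (0.09). It stayed negative for Rb1 (-0.625), and Cdkn1a was lower in S-G2-M in preparations 5 and 8.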

How the results depend on the processing

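The test with no minimum change called 14687 genes; against a minimum of 2-fold it called 5146, with 1848 higher and 3298 lower. The other settings called between 11947 and 15603 genes, and leaving out a preparation gave 11947 to 13914 in all, 5800 to 6883 higher and 6147 to 7031 lower. Of the called genes 48.2% were higher, against 35.9% in the 2-fold test. No named gene changed direction under any setting. At most 7 of 126 lost their call, other than in the 2-fold test, where 27 did, and Col9a2 lost it in 8 of the 9 others. Without WT2 the calls of Btg2, Cdkn1b, Col9a2, Lin28b, Rbl2 and Tfrc were lost, and without WT3 those of Btg2, Col9a2, Dbx1 and Krt8.

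Without the block for preparation the contrast called 13599 genes, and Btg2, Col9a2, Hba-a1, Krt8, Lin28b (adjusted p = 0.162), Sptb and Tfrc lost their call. The difference between days then called 2455 genes, with 1130 lower at E13.5.

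For that difference, leaving out a preparation gave 1102 to 4378 genes, 659 to 2211 higher and 407 to 2167 lower, and the lowest counts came without preparation 5 or 8, which leaves 1 E13.5 preparation whose spread is taken from the others. Without preparation 5 the counts were 1212, 805 and 407, and without 8 they were 1102, 659 and 443. With no filter on low counts 2969 were lower. The share higher at E13.5 was 51.1%, against 58.4% with RLE factors, 58.8% with DESeq2, 41.3% with no filter and 66.4% without preparation 5; the cause was not tested. Depth limits genes near the floor of 3 counts.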
